A study of Mus musculus with 2 samples.

Results

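The genes described here are those of glycolysis, the pentose phosphate pathway and the response to low oxygen, in macrophages grown from mouse bone marrow. The list held 42 genes, named by symbol, and 38 of them had a row of the deposited table with that symbol alone, out of 19863 genes named in this way. No row used here carried the single symbol of Gpi1, Eno1, Gapdh or G6pdx, and no value is given for them; Gapdh was named only on 24 rows that carried further symbols. The 38 genes fell into 15 glycolytic enzymes, 4 regulators of glycolysis and pyruvate entry, 3 pentose phosphate enzymes, 7 genes of the HIF factors and their oxygen sensors, and 9 hypoxia-induced genes. Where a symbol had several rows, the row with the highest mean of both arrays was used.

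The study compared 1 control array with 1 array labelled beta-catenin deficient, each of total RNA from macrophages of mice aged 8 weeks. Marrow cells of both groups were grown in medium conditioned by L929, a mouse fibroblast line whose medium supplies macrophage colony-stimulating factor. The sources used here do not give the strain, the Cre driver, the deleted part of the gene or how many animals were pooled. Each level below is a log2 RMA value of 1 array, and each difference is the array labelled deficient minus control. With 1 array per group there is no replicate error and no test, so higher and lower describe these 2 arrays only.

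Values ranged from 2.70 to 14.1 on the control array and from 2.12 to 13.98 on the other. A gene was counted when the higher of its 2 values reached 7.28, the table's median value and the floor here, which left 10657 genes with a median difference of -0.08. Ctnnb1, the gene of beta-catenin, was 11.3 in control and 11.4 on the array labelled deficient, so its level was not lower. Where the deleted part lies outside the probes this checks nothing, and every direction below rests on the label. Axin2, a Wnt feedback gene switched on by beta-catenin, was 7.61 in control, not far above the floor, and 5.97, below it, on the other array. Macrophage markers were present on both arrays, with 10 of 11 at or above the floor and a median difference of 0.10. Fibroblast and stromal markers and neutrophil granule markers were mostly higher on the array labelled deficient. At 1.5-fold, 12 of 16 stromal and 11 of 14 neutrophil markers were higher, against 7.54% of all genes at or above the floor. Among those counted, 2 stromal and 4 neutrophil markers reached the floor through the array labelled deficient alone.

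Glycolysis splits glucose into pyruvate in the cytosol, and lactate dehydrogenase turns pyruvate into lactate when it does not enter the mitochondria. The pentose phosphate pathway branches off at glucose 6-phosphate and yields NADPH, which macrophages spend on the oxidative burst and on lipid synthesis, and ribose for nucleotides. In low oxygen the prolyl hydroxylases (Egln genes) stop marking HIF-alpha proteins for destruction by Vhl, and HIF dimers with Arnt switch on genes of blood vessel growth, matrix, mitophagy and glycolysis. Inflammatory stimuli can also stabilise HIF-1 alpha in macrophages, where it is known for raising glycolytic genes.

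The 3 arms of the list differed in position. All 9 hypoxia-induced genes were higher on the array labelled deficient, with a median of 0.62, while the 15 glycolytic enzymes had a median of 0.11 and the 3 pentose phosphate enzymes a median of -0.39. The glycolytic median lay 0.50 below that of the hypoxia-induced genes (a difference of -0.50 on the log2 scale) and 0.51 above that of the pentose phosphate enzymes. The pentose phosphate median lay -1.01 from that of the hypoxia-induced genes. At 1.5-fold, 7 of the 38 genes were higher and 1 was lower, where 7.54% of all genes at or above the floor were higher and 8.81% lower. In sign, 29 of 38 were above 0, against 41.1% of all genes. All 38 genes with a row reached the floor. For 2 of them (Adm and Ankrd37) this was through the array labelled deficient alone, so the floor fixed their direction.

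**Figure D1:**
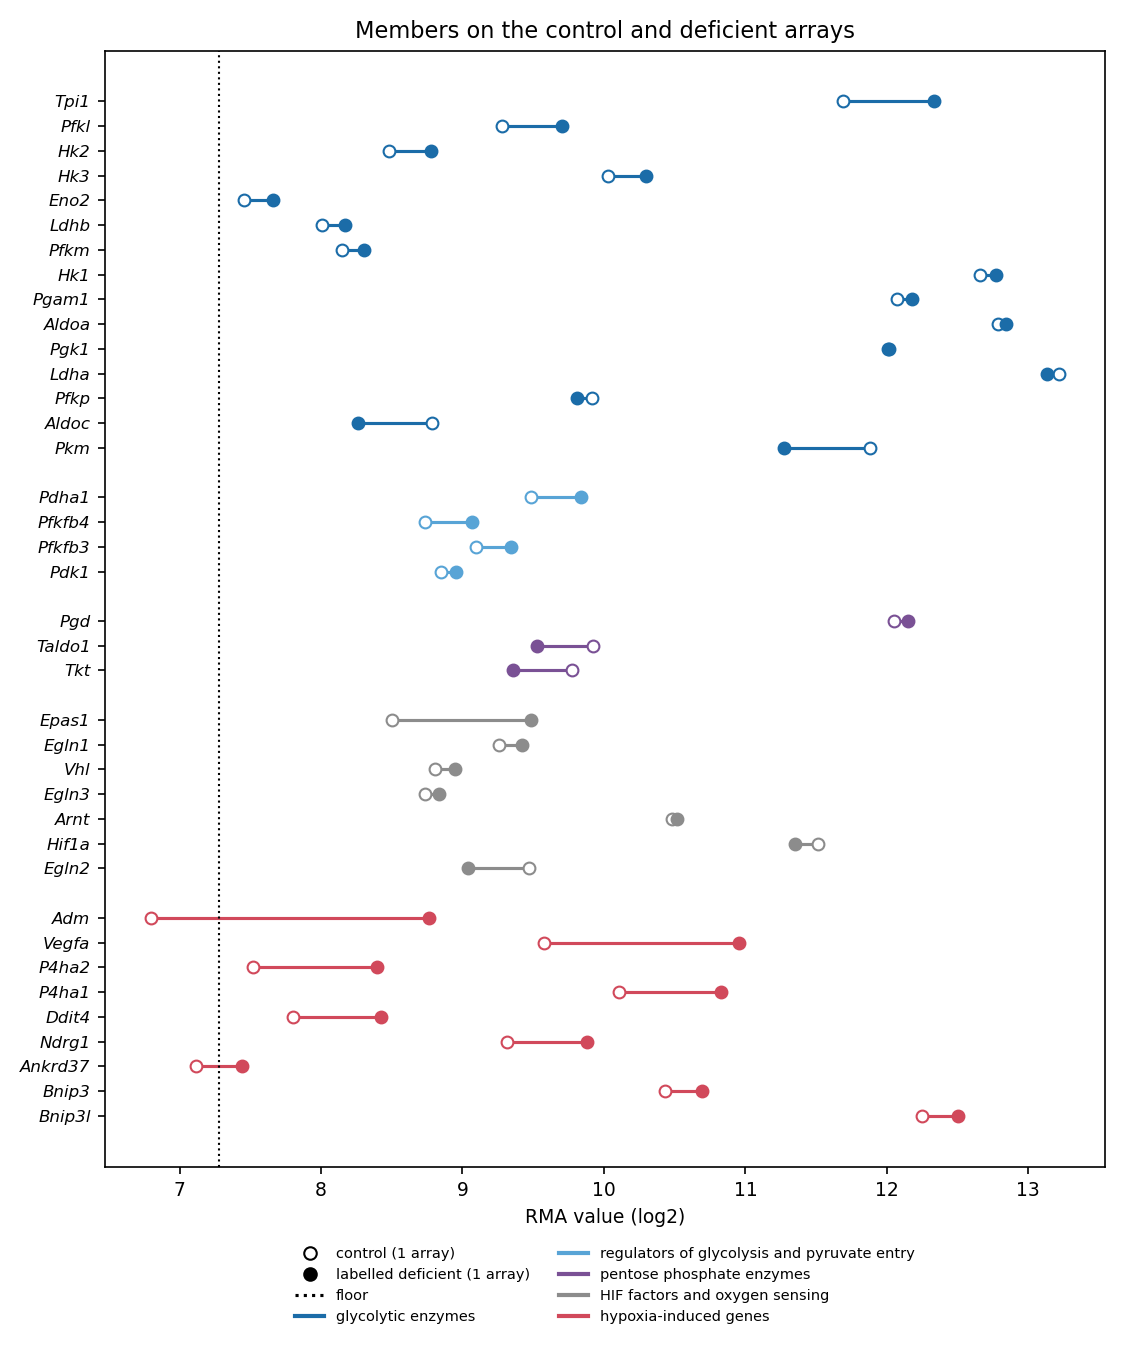
Log2 RMA value of each of the 38 genes on the control array (open circles) and the array labelled deficient (filled circles), by group; the dotted line is the floor of 7.28. The longest bars are those of Adm and Vegfa, and levels of different genes come from different probes and are not comparable with each other.

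Among the 7 genes of the HIF factors and their sensors, 1 was at least 1.5-fold apart. That is 14.3%, near the 16.4% over all genes at or above the floor. Epas1, which encodes HIF-2 alpha, was 8.50 in control and 9.49 on the array labelled deficient, a difference of 0.98 or 1.98-fold, at rank 326 of 10657 genes counted from the highest difference. Hif1a, the gene of HIF-1 alpha, went the other way, at 11.5 in control and 11.3 on the other array, a difference of -0.16. The common partner Arnt was nearly level (10.48 and 10.52). Thus the pair of alpha subunit genes differed in sign, and only the Epas1 difference was past 1.5-fold. The Hif1a difference lay near the median of all genes at or above the floor (-0.08). It was -0.09 under centring, -0.12 under loess and -0.18 under quantile normalization. The medians of all genes were then -0.001, 0.02 and -0.02. HIF-1 alpha is controlled chiefly through its protein, which an expression array does not read.

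The 3 prolyl hydroxylase genes were not past 1.5-fold in either direction. Egln2, the oxygen sensor gene that is not itself a classical HIF target, was the lowest of the group at 9.47 in control and 9.04 on the array labelled deficient (-0.43). Egln1, the main sensor of HIF-1 alpha, differed by 0.16 (9.26 and 9.42). Egln3, which hypoxia induces strongly in many cells, differed by only 0.09 (8.74 and 8.83). Vhl, the substrate receptor of the ubiquitin ligase that removes hydroxylated HIF-alpha, differed by 0.14 (8.81 and 8.94). The whole group had a median of 0.09, with 5 of 7 above 0, against 41.1% of all genes.

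Of 10 further HIF regulators 8 reached the floor, and their median was 0.08. At 1.5-fold, 1 was higher (12.5%) and 0 were lower, against 7.54% and 8.81% of all genes at or above the floor. Os9, an endoplasmic reticulum lectin of protein quality control, was highest (10.1 and 10.8, difference 0.69), followed by the elongin subunit Eloc (0.10). The lowest were Hif1an, the asparagine hydroxylase that blocks HIF co-activator binding (-0.26), and the elongin subunit Elob (-0.06).

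The hypoxia-induced genes held 5 of the 7 members that were at least 1.5-fold higher, and 0 of the 9 were lower. Over all genes at or above the floor, 7.54% were higher and 8.81% lower by 1.5-fold. Adm, which encodes the vasodilator peptide adrenomedullin, was 6.80 in control and 8.76 on the array labelled deficient, a difference of 1.97 or 3.92-fold. Its control value lay below the floor, and it stood at rank 45 of 10657. Vegfa, the main growth factor of blood vessels, was 9.58 and 10.96, a difference of 1.38 or 2.60-fold, at rank 153. Those were the 2 members past 2-fold, where 2.96% of all genes were higher and 1.59% lower by that fold.

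Both collagen prolyl 4-hydroxylase genes, whose enzymes stabilise the collagen triple helix, were past 1.5-fold. P4ha2 was 7.52 in control and 8.40 on the array labelled deficient, a difference of 0.88. P4ha1 was 10.1 and 10.8, a difference of 0.72. Ddit4, which encodes the mTORC1 inhibitor REDD1, was 7.81 and 8.42, a difference of 0.62 that put it just past 1.5-fold. Ndrg1, a stress-responsive gene that is strongly induced by hypoxia, was 9.32 and 9.88 and stayed just short of it at 0.56. The collagen genes Col1a1 (1.04) and Col1a2 (1.75), of the stromal marker list, were higher on the same array, and the whole stromal list had a median of 0.96 with 12 of 16 at least 1.5-fold higher and a summed linear signal, over all 18 with a row, 1.86 times that of control. Of its defining markers, Pdgfra was 6.92 in control, below the floor, and 9.04 on the array labelled deficient, while Lum and Fap stayed below the floor on both arrays. The part of these cells in the Adm, Vegfa, P4ha1 and P4ha2 differences was not tested.

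The mitophagy receptors and Ankrd37 differed less. Bnip3 was 10.4 in control and 10.7 on the array labelled deficient (0.26), and its paralogue Bnip3l was 12.2 and 12.5 (0.25). A further row named Bnip3 read 9.64 and 10.2, a difference of 0.58, so the size of the Bnip3 difference depended on the row. A further Bnip3l row gave 0.17. Ankrd37, an ankyrin repeat gene known as a HIF-1 target, was 7.11 and 7.44 (0.32), with its control value below the floor. All these rows lay above 0.

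Promoters of the members past 1.5-fold in the hypoxia group are shown with those of Ldha and Tpi1, glycolytic genes on either side of the motif search, because HIF dimers bind a short core that can be looked for in them. Sequences are RefSeq's on GRCm38.p6, from 250 bases before to 50 after the start, written 5′ to 3′ on the gene's strand. Capitals mark ACGTG or GCGTG on either strand, so CACGT and CACGC are marked too; CACGTG, the E-box core, is counted by the search as ACGTG on both strands.
Adm (chr7:110627407-110627706, plus strand): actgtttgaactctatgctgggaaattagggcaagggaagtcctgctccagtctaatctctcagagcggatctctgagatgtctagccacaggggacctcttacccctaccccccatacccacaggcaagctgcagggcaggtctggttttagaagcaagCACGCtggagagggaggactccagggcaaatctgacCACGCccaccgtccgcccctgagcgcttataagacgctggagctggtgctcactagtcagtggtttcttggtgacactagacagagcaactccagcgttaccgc
Vegfa (chr17:46032328-46032627, minus strand): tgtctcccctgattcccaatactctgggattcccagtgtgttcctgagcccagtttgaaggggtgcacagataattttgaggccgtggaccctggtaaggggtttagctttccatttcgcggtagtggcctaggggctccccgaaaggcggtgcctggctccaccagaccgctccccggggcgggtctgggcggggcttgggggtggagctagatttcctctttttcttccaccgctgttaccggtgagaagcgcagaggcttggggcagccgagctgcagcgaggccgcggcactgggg
P4ha2 (chr11:54100674-54100973, plus strand): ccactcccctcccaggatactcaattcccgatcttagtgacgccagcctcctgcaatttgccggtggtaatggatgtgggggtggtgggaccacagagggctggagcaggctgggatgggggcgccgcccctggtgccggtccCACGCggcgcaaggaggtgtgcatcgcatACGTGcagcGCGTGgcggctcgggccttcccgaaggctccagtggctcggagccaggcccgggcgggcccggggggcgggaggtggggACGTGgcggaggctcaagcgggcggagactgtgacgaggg
P4ha1 (chr10:59323046-59323345, plus strand): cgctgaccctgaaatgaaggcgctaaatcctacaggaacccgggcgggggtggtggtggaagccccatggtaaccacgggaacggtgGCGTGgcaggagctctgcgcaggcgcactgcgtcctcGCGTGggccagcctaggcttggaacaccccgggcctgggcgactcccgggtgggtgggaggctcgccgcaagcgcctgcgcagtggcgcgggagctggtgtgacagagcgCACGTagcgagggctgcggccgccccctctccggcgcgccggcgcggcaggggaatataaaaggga
Ddit4 (chr10:59951721-59952020, minus strand): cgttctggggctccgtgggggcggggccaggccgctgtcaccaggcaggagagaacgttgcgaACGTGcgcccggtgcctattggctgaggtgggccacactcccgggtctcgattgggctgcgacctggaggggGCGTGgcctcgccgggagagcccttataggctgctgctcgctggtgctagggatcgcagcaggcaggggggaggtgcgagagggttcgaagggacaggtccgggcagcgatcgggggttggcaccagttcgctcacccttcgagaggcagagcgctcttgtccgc
Ldha (chr7:46845554-46845853, plus strand): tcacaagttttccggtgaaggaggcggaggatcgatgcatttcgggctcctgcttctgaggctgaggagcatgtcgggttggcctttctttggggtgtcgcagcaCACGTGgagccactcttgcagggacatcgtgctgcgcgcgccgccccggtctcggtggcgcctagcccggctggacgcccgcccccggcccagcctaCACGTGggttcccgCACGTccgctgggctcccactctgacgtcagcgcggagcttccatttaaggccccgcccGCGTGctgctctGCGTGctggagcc
Tpi1 (chr6:124814109-124814408, minus strand): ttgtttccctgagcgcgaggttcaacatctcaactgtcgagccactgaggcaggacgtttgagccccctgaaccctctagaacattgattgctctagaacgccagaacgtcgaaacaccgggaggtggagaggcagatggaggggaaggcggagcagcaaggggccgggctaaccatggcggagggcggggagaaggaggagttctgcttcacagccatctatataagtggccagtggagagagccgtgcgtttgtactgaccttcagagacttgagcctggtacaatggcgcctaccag

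Each of the 7 hypoxia-induced genes with a RefSeq promoter had at least 1 of these cores in a window, Vegfa only at an internal start. So did 15 of 18 glycolytic enzymes, 4 of 4 regulators, 4 of 4 pentose phosphate enzymes and 5 of 6 HIF genes. Over all genes the share was 46.7% of 27025. Over single windows of the same length the share was 43.8% of 32851. Both cores hold a CpG, and the windows differed in base composition: the median GC content was 69.0% for the hypoxia-induced genes, 59.3% for the glycolytic enzymes, 58.3% for the pentose phosphate enzymes and 52.8% over all genes. Adm had 2 cores, both of the GCGTG kind. P4ha2 had 4, P4ha1 had 3 and Ddit4 had 2. The Vegfa window shown had 0, and a second Vegfa window at an internal start had 2. Ldha, whose level was nearly equal on both arrays, had 5 marked stretches, and Tpi1, the highest glycolytic enzyme by difference, had 0. A match is a run of letters and not a measured site.

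**Figure D2:**
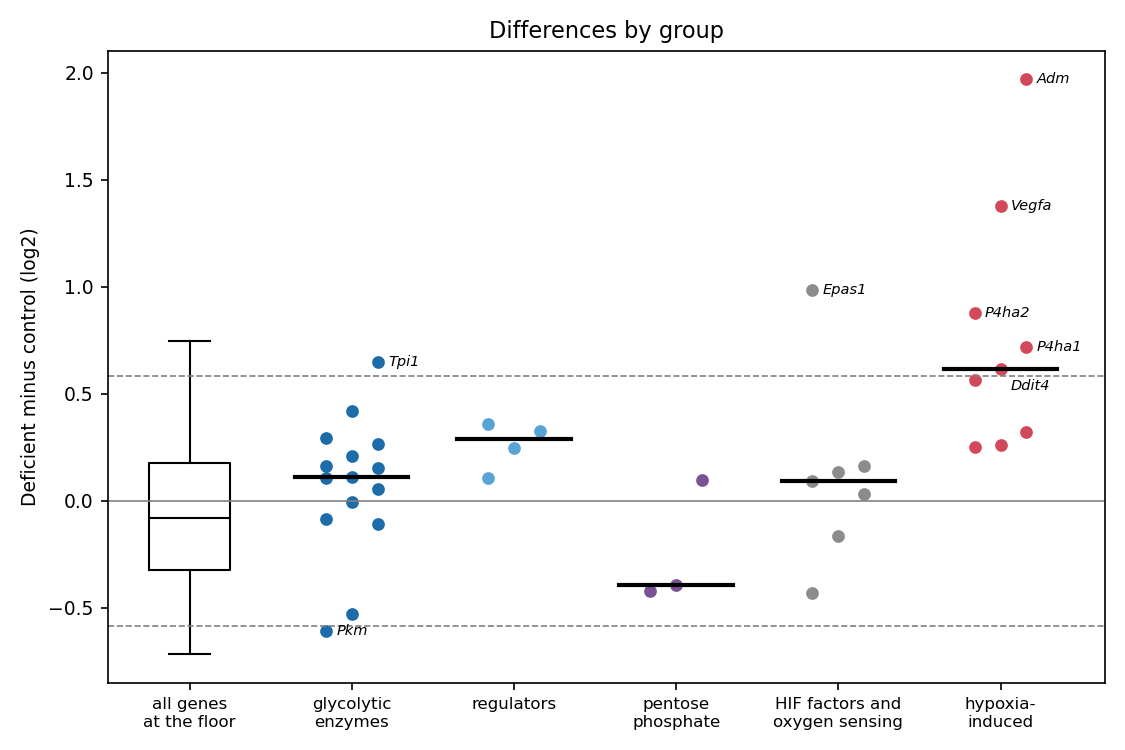
Difference of the array labelled deficient minus control (log2) for each gene, by group, with black bars at the group medians and dashed lines at 1.5-fold; the box is the interquartile range of all 10657 genes at or above the floor, with its median and whiskers from percentile 5 to percentile 95. All 9 hypoxia-induced genes lie above 0, and glycolytic enzymes lie on both sides of it.

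Of 20 further hypoxia-induced genes, 16 reached the floor, and they did not share 1 direction. Their median was 0.15, and 8 lay above 0 and 8 below. At 1.5-fold, 5 were higher and 1 was lower, or 31.25% and 6.25%. Over all genes at or above the floor the shares were 7.54% and 8.81%. Lox, which cross-links collagen, was 10.1 in control and 11.8 on the array labelled deficient (1.67), and the mitochondrial adenylate kinase Ak4 was 8.86 and 10.05 (1.18). Stc2 (0.89, from a control value below the floor), Fam162a (0.70) and the collagen lysyl hydroxylase Plod2 (0.64) were the other three past 1.5-fold, named after their values were seen. The lowest were the glycogen branching enzyme Gbe1, at 9.66 and 8.69 (-0.97), and the histone demethylase Kdm3a (-0.51). Car9, a carbonic anhydrase often used as a hypoxia marker, was 7.90 and 7.43 (-0.47, also named after its value was seen). The single sign of the 9 members was not seen in this longer list.

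Glycolytic enzymes were close to level. Of 15, 13 lay within 1.5-fold, 1 was higher and 1 was lower, and 10 were above 0. At 1.5-fold that is 6.67% each way, near the 7.54% higher and 8.81% lower over all genes at or above the floor. Over all genes, 41.1% were above 0. At the entry step, all 3 hexokinase genes were slightly higher. Hk2, the isoenzyme that HIF-1 and growth signals induce, was 8.48 in control and 8.78 on the array labelled deficient (0.29), and Hk3, the isoenzyme of myeloid cells, was 10.03 and 10.29 (0.27). Hk1, the widely expressed form, differed by 0.11 (12.7 and 12.8). Its row rests on 1 GenBank record without a RefSeq transcript, and 16 rows with several symbols pair Hk1 with the ribosomal gene Rpl17. The Hk1 row that does list RefSeq transcripts read 9.10 and 9.37, a difference of 0.26. The glycolytic median of 0.11 was the value of the Hk1 row used, and it was 0.06 with the mean of all rows.

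The subunit genes of phosphofructokinase, the committed step, split by isoform. Pfkl, the liver-type subunit that is also found in phagocytes, was 9.28 in control and 9.70 on the array labelled deficient (0.42). Pfkm, the muscle type, was 8.15 and 8.30 (0.15). Pfkp, the platelet type, was 9.92 and 9.81 (-0.11). None of the 3 was past 1.5-fold.

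The aldolase genes also went apart. Aldoa, the widespread form, was 12.79 and 12.84 (0.06), while Aldoc, known from brain, was 8.79 in control and 8.26 on the array labelled deficient (-0.53), short of 1.5-fold. Tpi1, triosephosphate isomerase, was the highest glycolytic enzyme, at 11.7 and 12.3, a difference of 0.65 or 1.57-fold, at rank 684 of 10657. It acts on the product of aldolase, so genes of neighbouring steps differed by unequal amounts.

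Of the later enzymes with a row, Pgk1, Pgam1 and Eno2 were within 1.5-fold and Pkm was not. Pgk1, phosphoglycerate kinase, was 12.0 on both arrays, with a difference of -0.01 that turned above 0 under centring and loess. Pgam1 was 12.1 in control and 12.2 on the array labelled deficient (0.11), and its other rows gave -0.01. Eno2, the enolase of neurons that HIF-1 also induces, was 7.45 and 7.66 (0.21). Pkm, pyruvate kinase, which makes the pyruvate, was the lowest member of the whole list at 11.9 in control and 11.3 on the other array, a difference of -0.61 or 1.53-fold lower, at rank 862 counted from the lowest. That difference fell short of 1.5-fold under centring (-0.54) and loess (-0.56), and a further Pkm row read 11.6 and 11.4 (-0.19). Pgk1, Pgam1 and Pkm are read by several rows and have close copies in the genome, so their probes may share signal.

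Lactate dehydrogenase was level. Ldha, the subunit that favours lactate and a classical HIF-1 target, was 13.2 in control and 13.1 on the array labelled deficient, a difference of -0.09 that turned above 0 under quantile normalization (0.04). Ldhb was 8.01 and 8.17 (0.17), and a further Ldhb row gave -0.31, so its direction was not settled. For scale, the 236 genes with a mean value from 12 to 13, the range of Pgk1 and Aldoa but not of Ldha, had a median difference of 0.00.

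**Figure D3:**
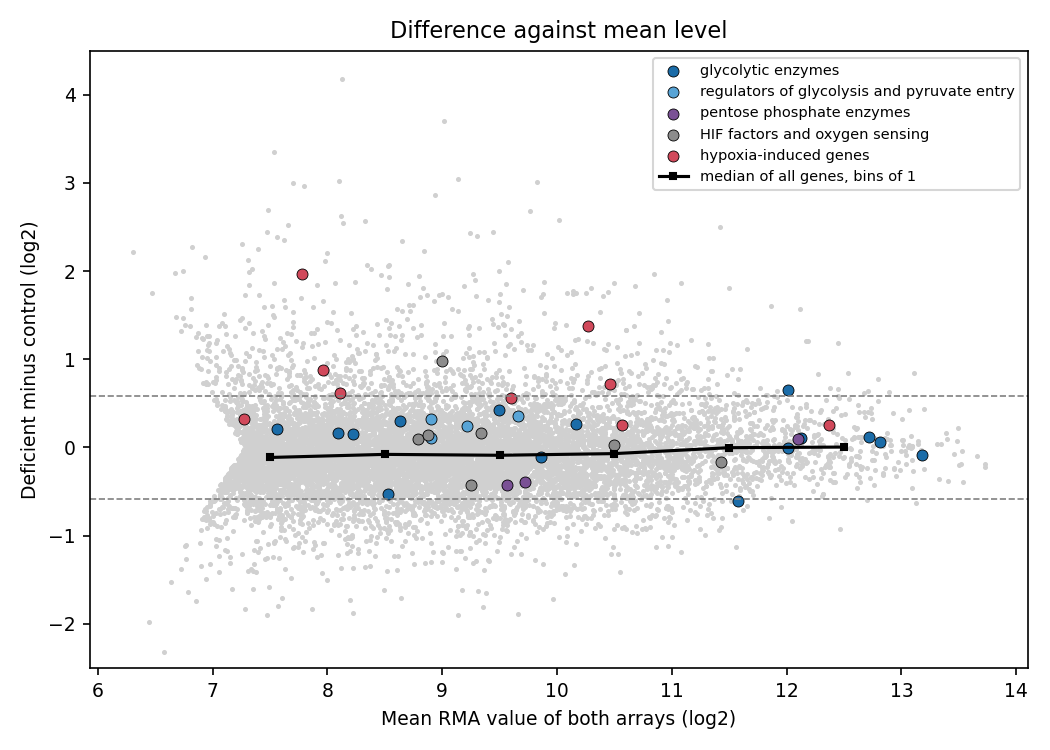
Difference of the array labelled deficient minus control (log2) against the mean of both arrays (log2) for all genes at or above the floor (grey) and the 38 genes by group, with dashed lines at 1.5-fold and the median of all genes in bins of 1 log2 unit (black). The bin medians run from -0.11 for means of 7 to 8 to 0.00 for means of 12 to 13, and the hypoxia-induced genes lie above that line at every level they occupy.

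The 4 regulators at the ends of the pathway were all slightly higher and all within 1.5-fold, with a median of 0.29. Over all genes at or above the floor, 41.1% were above 0 and 16.4% at least 1.5-fold apart. Pfkfb3, whose product fructose 2,6-bisphosphate activates phosphofructokinase, was 9.09 in control and 9.34 on the array labelled deficient (0.25). Its hypoxia-responsive relative Pfkfb4 was 8.74 and 9.07 (0.33). Pdk1, the kinase that HIF-1 uses to hold pyruvate out of the mitochondria, was 8.85 and 8.95 (0.11), and Pdha1, the pyruvate dehydrogenase subunit on which it acts, was 9.48 and 9.84 (0.36).

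Of 34 further genes of glucose and lactate transport, glycolysis and pyruvate entry, 22 reached the floor, and their median was -0.13. At 1.5-fold, 1 was higher and 2 were lower. Pdk4, a kinase that shuts off pyruvate dehydrogenase in fasting and lipid use, was 8.45 in control and 9.71 on the array labelled deficient (1.27), and the opposing phosphatase Pdp1 followed at 0.44. The lowest were Mpc1, a subunit of the mitochondrial pyruvate carrier, at 11.2 and 10.4 (-0.79), and Pdhx, a structural component of the pyruvate dehydrogenase complex (-0.62). The glucose transporter Slc2a1, named after its value was seen, was 11.7 and 12.0 (0.32). The shares past 1.5-fold, 4.55% higher and 9.09% lower, were close to or below those over all genes (7.54% and 8.81%).

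Of the pentose phosphate enzymes, 2 of 3 were lower and 0 were past 1.5-fold. Tkt, transketolase, was 9.78 in control and 9.36 on the array labelled deficient (-0.42), and Taldo1, transaldolase, was 9.92 and 9.53 (-0.39). These enzymes form the non-oxidative arm, which links ribose phosphates back to glycolysis. Pgd, of the oxidative arm that makes NADPH, was 12.1 and 12.2 (0.10). Of the 8 further pentose phosphate genes at or above the floor, out of 11, 1 was lower by 1.5-fold and 0 were higher, and their median was -0.19. The 1 lower gene is 12.5% of them, where 8.81% of all genes at or above the floor were lower and 7.54% higher. Prps2, which makes the ribose donor of nucleotide synthesis, was lowest at 11.0 and 10.4 (-0.63), followed by the epimerase Rpe (-0.44), and the highest were the isomerase Rpia (0.19) and Prps1 (0.15). Cell cycle genes were lower on the array labelled deficient too (median -0.49). Of 19, 8 were lower by 1.5-fold and 0 higher, against 8.81% and 7.54% of all genes at or above the floor. The part of the cell cycle genes in the pentose phosphate values was not tested.

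Neighbouring routes gave no shared direction. The 18 citric acid cycle genes had a median of 0.08, and 1 gene (5.56%) was past 1.5-fold in each direction. Over all genes at or above the floor, 7.54% were higher and 8.81% lower by that fold. Sdha, of succinate dehydrogenase, was highest (0.68), followed by Idh3a (0.54), and Idh2 (-0.64) and Sdhc (-0.42) were lowest. Thus subunit genes of succinate dehydrogenase differed in sign. The 11 NADPH and glutathione genes had a median of -0.11, again with 1 gene (9.09%) past 1.5-fold in each direction, near those shares of all genes. The cytosolic NADPH source Idh1 was highest (0.72), with the peroxiredoxin Prdx1 next (0.40), and the glutathione synthesis subunit Gclm (-0.67) and the reductase Gsr (-0.39) were lowest.

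Several marker lists lay further from 0 than the members did. Neutrophil granule markers had a median of 1.30 and a summed linear signal 2.23 times that of control. Among mast cell and basophil markers, Cpa3, Mcpt8 and Prss34 reached the floor through the array labelled deficient alone, so the floor fixed their direction. Hdc, at the floor on both arrays, differed by 0.02, and Kit, Fcer1a, Ms4a2 and Tpsb2 stayed below the floor on both. Among dendritic cell markers, Itgax differed by 1.53 and Ccr7 by -0.63, Cd209a reached the floor through the array labelled deficient alone, and Flt3, Zbtb46, Xcr1, Clec9a and Siglech were below it on both. Erythroid and megakaryocyte markers had 3 of 5 higher and 1 lower by 1.5-fold (median 0.83), against 7.54% and 8.81% of all genes at or above the floor. Of the markers counted, 2 stromal, 4 neutrophil and 1 erythroid or megakaryocyte gene had a control value below the floor. Of the 10 macrophage markers, 1 was higher by 1.5-fold, near the 7.54% of all genes. The summed linear signal of all 11 macrophage markers with a row was 0.99 times that of control. The share of each cell type in the cultures is not known from these values, and in bulk RNA more cells of a type and more RNA per cell cannot be told apart.

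**Figure D4:**
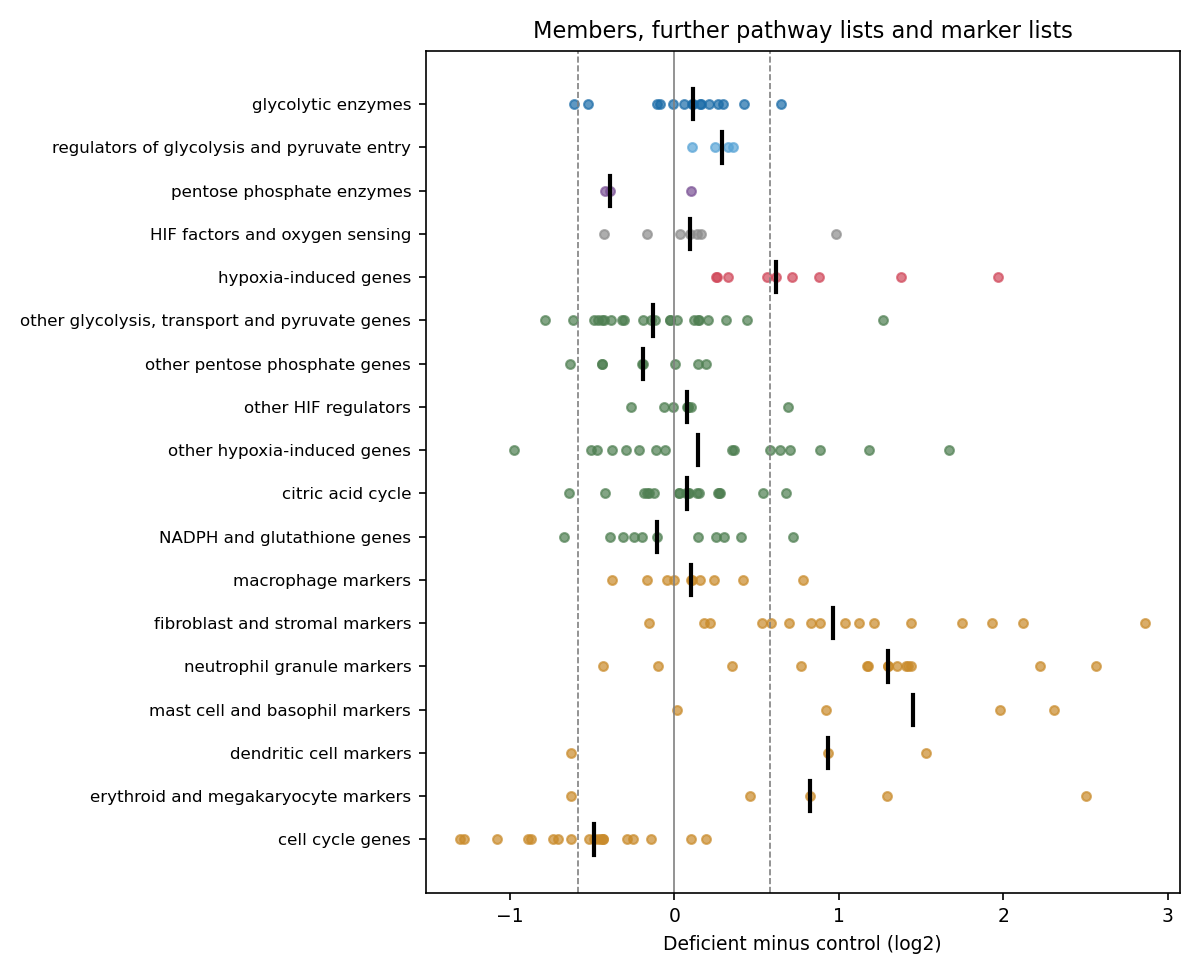
Difference of the array labelled deficient minus control (log2) for each gene at or above the floor in the 5 groups of members, 6 further pathway lists (green) and 7 marker lists (ochre), with black ticks at the medians and dashed lines at 1.5-fold. The stromal and neutrophil lists, at 0.96 and 1.30, lie to the right of the hypoxia-induced genes at 0.62, and the cell cycle list lies to the left at -0.49.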

How the data were processed

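Total RNA of 1 macrophage culture labelled control and 1 labelled beta-catenin deficient was read on Affymetrix 1.0 ST arrays. The deposited table holds 1 value per row and array, made by the authors with RMA, per the submitters' processing notes; its log2 scale was taken from the deposited values, which run from 2.12 to 14.1. RMA corrects background, quantile-normalizes probes and summarises them, which can shrink differences of dim genes. The RMA version, settings, genome build and whether both columns came from 1 run: not given in the sources used here.

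Of 25917 rows, GEO's platform annotation gave 21624 a single symbol, 1568 several and 2725 none. Differences and medians were computed in Python 3.11.15 with pandas 2.3.3, and the loess curve (span 0.3) with statsmodels 0.14.6. The procedure was tested on simulated data. The planted differences were larger than that of any member and lay in genes above the floor, so the recovery of smaller differences was not checked. A gene was counted as higher or lower at 1.5-fold. Named are all members, Ctnnb1 and Axin2, and the 2 highest and 2 lowest genes of each further pathway list. Marker genes and other genes named with values were chosen after their values were seen. The members, lists and rules were chosen with earlier results of these data known. Alternatives were 3 floors, 3 scalings, 2 choices of row, a 2-fold threshold and group means. RMA values carry no depth, and the number of arrays limits the precision.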

Additional observations from a re-analysis of the deposited data

How the results depend on the processing

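No alternative turned the sign of a group median or of a difference between group medians. All 9 hypoxia-induced genes stayed above 0 under every scaling and choice of row. A value is called moved here when it shifted by more than 0.1 on the log2 scale, or a count by more than 1.5 times. With the floor at the 75th percentile, 5 hypoxia-induced genes were counted and 2 were 1.5-fold apart, and 5 of 26 members in all. Under that floor 16.9% of all genes were 1.5-fold apart. At 2-fold, 0 glycolytic enzymes, 0 HIF genes, 2 hypoxia-induced genes and 2 members in all were apart, against 4.54% of all genes. The glycolytic count was 1 under centring, loess, the mean of all rows and the row with the lowest mean, each time without Pkm. Under these settings 15.9% to 16.7% of all genes were 1.5-fold apart. Loess put the hypoxia-induced median at 0.72. Group means gave 0.77 for the hypoxia-induced genes, -0.24 for the pentose phosphate enzymes, -0.70 for glycolytic minus hypoxia-induced and 0.31 for glycolytic minus pentose phosphate.

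Scaling changed the balance over all genes. At 1.5-fold, 9.37% were higher and 6.59% lower under centring, 8.89% and 6.93% under quantile normalization and 9.86% and 6.06% under loess, while the members gave 8 higher and 0 lower, 8 and 1, and 8 and 0; Ndrg1 was the member that joined. Pgk1, Ldha, Ldhb and Pgam1 changed sign under at least 1 alternative, and none of these 4 was past 1.5-fold. No paired analysis was possible because each group has 1 array.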
